A study of Drosophila melanogaster with 16 samples.

Results

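The genes described here are those whose change between larval day 3 and day 4 differed between midguts with Hnf4 silenced in enterocytes and control midguts. They were found in 1 fit over all 16 libraries with edgeR's quasi-likelihood test. The log2 change between the days in silenced midguts minus that in control midguts, called the interaction here, had to have an adjusted p (Benjamini-Hochberg) under 0.05 and a size of at least 0.5. By this rule 493 of the 9801 genes tested were members, out of 17873 genes counted. They were then sorted by shape, that is, by how the gene behaved in control midguts and what became of that behaviour in silenced ones. The study crossed females bearing mex-GAL4, whose activity is in enterocytes, with males carrying a UAS hairpin against Hnf4 (TRiP.HMC05862) inserted at the attP40 site, or with males of the empty attP40 site. Silenced midguts (mex-GAL4 / UAS-Hnf4 RNAi, called Hnf4i) and control midguts (mex-GAL4 over attP40) were dissected on day 4 after egg laying, early in the third instar, and on day 3, late in the second instar. Each of the 4 groups had 4 biological replicates, and a library pooled 10 midguts on day 4 and 30 on day 3. All larvae ate yeast alone, at 25 °C and 40 embryos per vial. Silencing rested on 1 hairpin line and was limited to the cells in which the driver is active, while RNA was taken from the whole midgut, so every value is a mixture of cell types. In such bulk samples, fewer cells of a type and less RNA per cell cannot be told apart.

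Hnf4 is a nuclear receptor, a transcription factor of the ligand-binding receptor family, that in flies as in mammals controls genes of fatty acid oxidation, lipid handling and glucose metabolism. Enterocytes are the absorptive cells of the midgut: they secrete digestive enzymes, take up sugars, amino acids and fatty acids, and store or export fat. Between these stages the larval gut adjusts these functions as the larva enters its main phase of growth. An interaction therefore asks a narrower question than the effect of silencing on either day: which parts of that developmental adjustment took a different course when Hnf4 was reduced.

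The silenced gene itself was not called for the interaction. Levels are given as CPM, a gene's counts relative to its library's total after TMM scaling, with replicates 1 to 4 of a group in order, and means with ± are over the 4 libraries of a group with their SD. Hnf4 (FBgn0004914, chromosome 2L, 8687226 to 8709611 in BDGP6) had 67.4, 58.8, 63.8 and 68.3 CPM in Hnf4i midguts of day 4 and 45.7, 48.7, 50.6 and 48.5 CPM in those of day 3. In control midguts Hnf4 stood at 126, 124, 134 and 126 CPM on day 4 and 92.9, 92.9, 88 and 94 CPM on day 3. For Hnf4 the Hnf4i libraries were below the control range on day 4 and again on day 3. The silencing effect was -0.98 on day 4 and -0.93 on day 3 on the log2 scale (interaction -0.06, SE 0.07, adjusted p = 0.746).

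Libraries held 48611297 to 57771857 counts in Hnf4i midguts on day 4 and 44546248 to 58986079 on day 3, against 50906793 to 83418453 in control midguts on day 4 and 52239342 to 59261868 on day 3. The Hnf4i libraries of day 4 differed most among themselves. Their median coefficient of variation over the called genes was 0.157, against 0.094 to 0.101 in the other groups. Over all genes tested the gap was smaller, at 0.125 against 0.084 to 0.096. Per gene, the mean chi-square of 2 libraries, which is near 1 for counting noise alone, was 45.8 between replicates 1 and 2 and 62.1 between replicates 3 and 4, but 114 to 179 across these pairs. On the third principal component, with 2.66% of the variance, Hnf4i day 4 replicate 3 stood at -42.9 and the other 3 at 11.9 to 12.7.

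Fat body transcripts were present unevenly. The summed level of 9 fat body markers was 1139, 875, 14 and 2884 CPM in Hnf4i day 4 replicates 1 to 4 and 22.1 to 52.0 CPM on day 3, against 24.5 to 145 CPM in control midguts on day 4 and 12.3 to 18.6 CPM on day 3. Single markers differed in this. The larval serum protein gene Lsp1alpha was at 0 in Hnf4i day 4 replicate 3 and in every Hnf4i library of day 3, and at 26.7 CPM in control day 4 replicate 3. The lipoprotein gene apolpp, in contrast, stood at 10.3 to 35.9 CPM in the Hnf4i libraries of day 3, above its 6.55 CPM in control day 4 replicate 3. A second fit left out the 4 libraries with the highest sums, Hnf4i day 4 replicates 1, 2 and 4 and control day 4 replicate 3, which leaves replicate 3 alone in its group and assumes that it varies like the other groups. Summed visceral muscle markers stood at 4651 to 6554 CPM in Hnf4i midguts on day 4 and 6634 to 8691 CPM on day 3, against 7099 to 8091 and 8172 to 8895 CPM in control midguts, and summed hemocyte markers at 256 to 330 and 190 to 233 CPM, against 422 to 444 and 216 to 233 CPM. Single hemocyte markers went both ways. Of 9 tested, 3 were called higher and 2 lower in Hnf4i midguts on day 4, with a median silencing effect of 0.24. Enterocyte markers summed to 5053 to 5596 CPM in Hnf4i midguts on day 4 and 3436 to 3569 CPM on day 3, against 4573 to 5058 and 3515 to 3596 CPM in control midguts. Salivary gland markers reached at most 1.21 CPM. Malpighian tubule markers summed to 51.6 CPM in Hnf4i day 4 replicate 2 and to at most 1.56 CPM in every other library. Tracheal markers summed to 20.5 to 41.1 CPM in Hnf4i midguts on day 4 and 140.2 to 189 CPM on day 3, against 32 to 49.5 and 106 to 170.2 CPM in control midguts, and the 7 tested had a median interaction of -0.84. Beyond the fit without the 4 libraries and one with the summed fat body level as a covariate, the part of these markers in the results was not tested.

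The interaction was higher for 254 genes (2.59% of those tested) and lower for 239 (2.44%). A lower interaction means that the transcript gained less, or lost more, between the days in Hnf4i midguts than in control midguts, and a higher one the reverse. Adjusted p was under 0.05 for 850 genes, of which 357 stayed under the size of 0.5, and the unadjusted p was under 0.05 for 2055. Between the days 1842 genes rose (18.8%) and 2339 fell (23.9%) in Hnf4i midguts, against 1668 (17%) and 2176 (22.2%) in control midguts. The median interaction of all tested genes was -0.01, and a level in CPM is a share of all transcripts counted in its library.

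**Figure D1:**
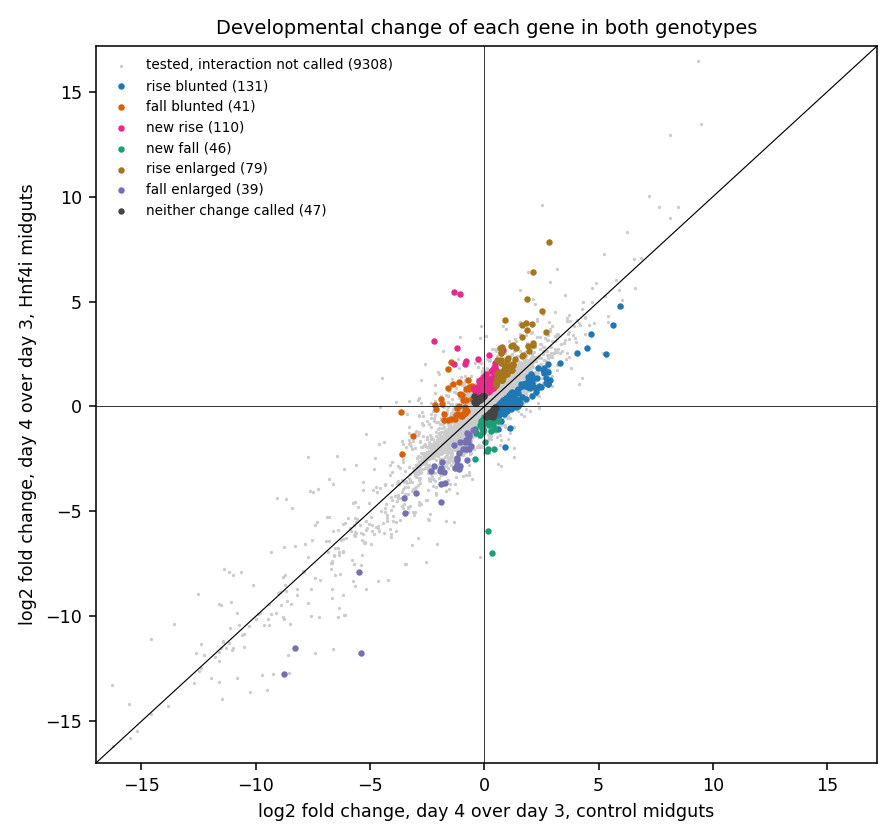
Each point is a gene: its log2 fold change between day 4 and day 3 in control midguts (x axis) and in Hnf4i midguts (y axis), with equal change on the diagonal. Grey points are the 9308 tested genes without a called interaction, and colours give the shapes of the 493 called genes, such as the 131 blunted rises below the diagonal on the right.

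Among the members, 131 genes rose in control midguts and gained less in Hnf4i midguts (a blunted rise), and 41 fell in control midguts and lost less (a blunted fall). A further 110 genes rose only by the calls in Hnf4i midguts (a new rise) and 46 fell only there by the same calls (a new fall). Another 79 rises and 39 falls were larger in Hnf4i midguts, and for 47 members neither change was called by itself. The blunted rises made up 7.85% of all genes that rose in control midguts, and the enlarged rises 4.74%. Blunted falls made up 1.88% of the genes that fell in control midguts, and enlarged falls 1.79%. The control change both sorts the genes and enters the interaction, so noise in it favours blunted over enlarged changes. These shares are a description. Of the 131 blunted rises 72 were not called in Hnf4i midguts, 56 were still called but smaller and 3 turned into falls. Of the 41 blunted falls 24 were not called in Hnf4i midguts, 6 were smaller and 11 turned into rises.

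The difference between the genotypes lay mostly on day 4. Hnf4i midguts were called different from control midguts on day 4 but not on day 3 for 143 of the 239 genes with a lower interaction and for 172 of the 254 with a higher one. Over all genes tested, 535 were higher (5.46%) and 658 lower (6.71%) in Hnf4i midguts on day 4, and 148 higher (1.51%) and 241 lower (2.46%) on day 3. These counts share libraries with the interaction and are a description of it. Blunted rises included the most genes that already differed on day 3: 31 differed on both days, and 16 only on day 3. Over all 131 the median silencing effect was -0.86 on day 4 and -0.07 on day 3.

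**Figure D2:**
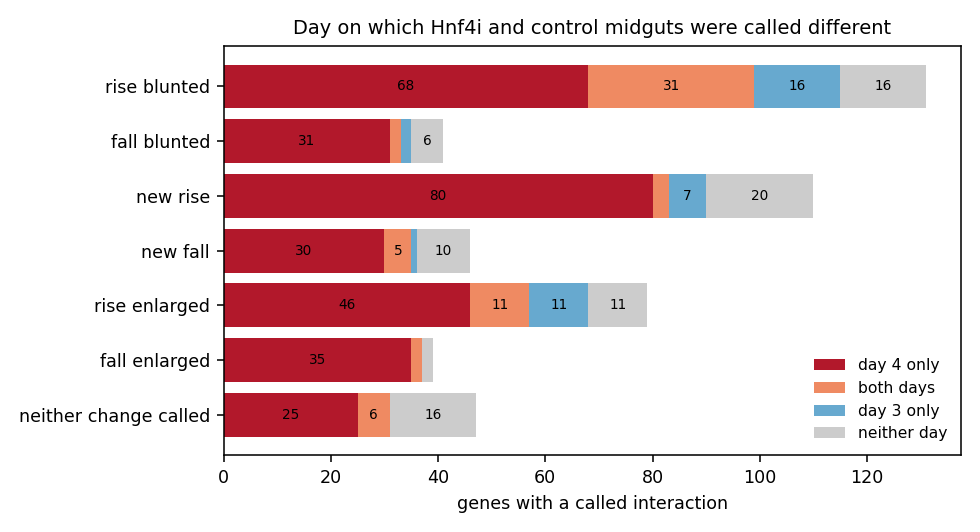
Bars count the genes with a called interaction (x axis) in each shape, split by the day on which Hnf4i and control midguts were called different. Day 4 alone is the largest class in every shape, with 68 of 131 blunted rises and 80 of 110 new rises.

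The blunted rises included genes for taking up and building fat. The CD36 family takes up lipids at the cell surface, and its member CG31741 (FBgn0051741, chromosome 2L, 18084256 to 18086714) had 7.74, 7.37, 3.72 and 5.31 CPM in Hnf4i midguts of day 4 and 1.33, 1.02, 1.27 and 0.702 CPM in those of day 3. In control midguts CG31741 stood at 27.8, 29.9, 50.9 and 52.7 CPM on day 4 and 1.13, 0.808, 0.79 and 1.31 CPM on day 3. CG31741 overlapped between the genotypes on day 3, while on day 4 every Hnf4i value was below every control value. Its change between the days was 2.48 in Hnf4i midguts, beside 5.31 in control midguts (interaction -2.83, SE 0.41, adjusted p = 4.09e-04). Its neighbour on the chromosome, ninaD, a CD36-family gene required for carotenoid uptake, had 641, 1011, 596 and 701 CPM in Hnf4i midguts of day 4 and 67.2, 73.5, 69.3 and 62.1 CPM in those of day 3. In control midguts ninaD stood at 2380.1, 2505, 2110.5 and 2370.3 CPM on day 4 and 89.5, 87.8, 98.4 and 91.3 CPM on day 3. On both days every Hnf4i value of ninaD was below every control value. The interaction of ninaD was -1.24 (SE 0.17, adjusted p = 2.67e-04), and its rise in Hnf4i midguts was still 3.44.

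The glycerol-3-phosphate acyltransferase gene mino (FBgn0027579, chromosome 3R, 27925191 to 27933077), which acts at the first step of triglyceride synthesis, had 62.5, 75.5, 56.5 and 66.6 CPM in Hnf4i midguts of day 4 and 30.1, 31, 28.8 and 33 CPM in those of day 3. In control midguts mino stood at 318, 346, 297 and 359 CPM on day 4 and 42.6, 56.9, 41.5 and 50.7 CPM on day 3. For mino the Hnf4i libraries were below the control range on day 4 and again on day 3. Its rise was 1.09 in Hnf4i midguts and 2.78 in control midguts (interaction -1.70, SE 0.14, adjusted p = 4.18e-06). Exons of mino overlap those of NSD on the other strand by 96 bases. Agpat2, the acyltransferase of the next step, had 34.2, 37, 34.2 and 23.9 CPM in Hnf4i midguts of day 4 and 27.7, 24, 24.5 and 32.3 CPM in those of day 3. In control midguts Agpat2 stood at 129, 146, 168 and 161 CPM on day 4 and 59.9, 60.2, 49.6 and 51.4 CPM on day 3. Without overlap, Agpat2 in Hnf4i midguts stayed below control on each day. For Agpat2 the change was 0.25 and not called in Hnf4i midguts, against 1.45 in control midguts (interaction -1.20, SE 0.18, adjusted p = 5.14e-04). Of 11 genes of triglyceride synthesis tested these 2 were called, both lower, and the median interaction of the list was -0.41. All 11 values were below 0, between -1.70 and -0.12.

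Men encodes malic enzyme, a source of NADPH for fatty acid synthesis. It had 402, 461, 481 and 501 CPM in Hnf4i midguts of day 4 and 263, 261, 229.7 and 247 CPM in those of day 3. In control midguts Men stood at 985, 1060.4, 1082 and 1098 CPM on day 4 and 204, 249, 194 and 213 CPM on day 3. Men in Hnf4i midguts was below the control range on day 4, with overlap on day 3. The interaction of Men was -1.41 (SE 0.11, adjusted p = 3.12e-06). The fatty acid desaturase gene Desat1 averaged 799.5 ± 112 CPM in Hnf4i midguts of day 4 and 516 ± 38.6 CPM in those of day 3, against 1514 ± 88.3 CPM in control midguts on day 4 and 663 ± 89.6 CPM on day 3 (interaction -0.56, SE 0.14, adjusted p = 0.021), a call that depended on control day 3 replicate 3. Seipin, which shapes the lipid droplet at the endoplasmic reticulum, averaged 85.8 ± 12.9 CPM in Hnf4i midguts of day 4 and 54.5 ± 1.64 CPM in those of day 3, against 229 ± 19.8 CPM in control midguts on day 4 and 83.4 ± 5.42 CPM on day 3 (interaction -0.80, SE 0.12, adjusted p = 6.29e-04). Seipin was the only called gene of 9 tested on the list of lipid droplet proteins and lipases (median -0.11). Other synthesis genes were called higher. ATPCL, the ATP citrate lyase that supplies acetyl-CoA, had an enlarged rise, with 422, 402, 370.3 and 492 CPM in Hnf4i midguts of day 4 and 195, 169, 172 and 163 CPM in those of day 3. In control midguts ATPCL stood at 279, 255, 264 and 261 CPM on day 4 and 150.3, 175, 139 and 167 CPM on day 3. For ATPCL the genotypes overlapped on day 3 but not on day 4, when Hnf4i midguts were above the control range. The interaction of ATPCL was 0.53 (SE 0.12, adjusted p = 0.0122), and 0.37 and no longer called without the 4 libraries. Of 21 genes of fatty acid synthesis, elongation and activation 2 were higher and 2 lower (median -0.20), the elongase gene Baldspot being the other higher one at 0.65 (SE 0.14, adjusted p = 0.0073).

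Of 15 digestive carbohydrases 8 were called lower, 7 of them as blunted rises, and the median of the list was -0.63. Without the 4 libraries 6 of the 15 were called lower, with a median of -0.52. The amylase gene Amy-d (FBgn0000078, chromosome 2R, 17124764 to 17126369) had 662, 836, 689.8 and 727 CPM in Hnf4i midguts of day 4 and 374, 394, 376 and 386 CPM in those of day 3. In control midguts Amy-d stood at 1684, 1502, 2110.5 and 1698 CPM on day 4 and 400.2, 402, 369 and 385 CPM on day 3. Amy-d overlapped between the genotypes on day 3, while on day 4 every Hnf4i value was below every control value. Amy-d had a rise of 0.93 in Hnf4i and 2.17 in control midguts (interaction -1.24, SE 0.12, adjusted p = 1.48e-05). Its tandem copy Amy-p averaged 1909.9 ± 84.8 CPM in Hnf4i midguts of day 4 and 1080.1 ± 56.5 CPM in those of day 3, against 2855 ± 242 CPM in control midguts on day 4 and 1021 ± 41.5 CPM on day 3 (interaction -0.66, SE 0.09, adjusted p = 1.33e-04). Amy-p and Amy-d are near copies, so the split of reads between them is uncertain. Amyrel, an amylase-related gene, averaged 399 ± 61.8 CPM in Hnf4i midguts of day 4 and 289 ± 28.6 CPM in those of day 3, against 679.9 ± 93.1 CPM in control midguts on day 4 and 219 ± 24.6 CPM on day 3 (interaction -1.17, SE 0.17, adjusted p = 3.13e-04).

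The beta-galactosidase gene Gal had 12.6, 21.8, 6.48 and 7.96 CPM in Hnf4i midguts of day 4 and 21.1, 33.8, 25.4 and 23.6 CPM in those of day 3. In control midguts Gal stood at 58.4, 58.6, 61.6 and 53.5 CPM on day 4 and 38.9, 36.7, 36.2 and 40.9 CPM on day 3. On both days every Hnf4i value of Gal was below every control value. Its change turned round, with -1.09 in Hnf4i midguts and 0.60 in control midguts (interaction -1.70, SE 0.36, adjusted p = 0.00668). Exons of Gal overlap those of Tsp26A on the other strand by 165 bases. The maltase gene Mal-A3 averaged 2245 ± 176 CPM in Hnf4i midguts of day 4 and 1749 ± 104 CPM in those of day 3, against 3724 ± 100.3 CPM in control midguts on day 4 and 1870.4 ± 79.4 CPM on day 3 (interaction -0.63, SE 0.08, adjusted p = 1.33e-04). The chitinase gene Cht9 averaged 226 ± 34.9 CPM in Hnf4i midguts of day 4 and 105 ± 15.4 CPM in those of day 3, against 392 ± 59.1 CPM in control midguts on day 4 and 109.5 ± 1.87 CPM on day 3 (interaction -0.73, SE 0.17, adjusted p = 0.0129). Without the 4 libraries Cht9 was at -0.59 and not called.

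Genes of a cluster of alpha-mannosidases, enzymes that trim mannose from glycans, were among the most abundant members. Among them LManVI had 10587, 12847, 6444 and 5246 CPM in Hnf4i midguts of day 4 and 10172, 10354, 10138 and 9591 CPM in those of day 3. In control midguts LManVI stood at 25624, 24937, 26146 and 24617 CPM on day 4 and 14341, 14893, 14102 and 13725 CPM on day 3. For LManVI the Hnf4i libraries were below the control range on day 4 and again on day 3. In Hnf4i midguts of day 4 replicates 1 and 2 stood above the highest Hnf4i library of day 3, and replicates 3 and 4 below the lowest. The change was -0.20 and not called in Hnf4i midguts, against 0.83 in control midguts (interaction -1.03, SE 0.26, adjusted p = 0.0223). LManV, also a blunted rise, averaged 7504 ± 2615 CPM in Hnf4i midguts of day 4 and 10093 ± 692 CPM in those of day 3, against 17363 ± 549 CPM in control midguts on day 4 and 11046 ± 141 CPM on day 3 (interaction -1.08, SE 0.23, adjusted p = 0.00721). LManIII, a further one, averaged 1462 ± 610.4 CPM in Hnf4i midguts of day 4 and 1734 ± 125 CPM in those of day 3, against 5025 ± 219.9 CPM in control midguts on day 4 and 2716 ± 80.9 CPM on day 3 (interaction -1.13, SE 0.27, adjusted p = 0.0148). Single Hnf4i libraries of day 4 stood at 8986, 10399, 5742 and 4891 CPM for LManV and 1702, 2212, 1034 and 902 CPM for LManIII. Replicates 3 and 4 were again the lowest. In the same cluster LManIV had a new fall, with 347, 476, 199.9 and 222 CPM in Hnf4i midguts of day 4 and 543, 679.8, 714 and 648 CPM in those of day 3. In control midguts LManIV stood at 864, 905, 957 and 826 CPM on day 4 and 636, 609.8, 658 and 696 CPM on day 3. LManIV overlapped between the genotypes on day 3, while on day 4 every Hnf4i value was below every control value. Its interaction was -1.51 (SE 0.27, adjusted p = 0.00201). These 4 genes lie side by side on chromosome 2L, and reads shared between such relatives could be split by the counting.

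Of 11 digestive lipases 3 were called lower (median -0.48), among them CG17191, which averaged 138 ± 9.61 CPM in Hnf4i midguts of day 4 and 83 ± 5.82 CPM in those of day 3, against 359 ± 8.14 CPM in control midguts on day 4 and 133 ± 4.67 CPM on day 3 (interaction -0.71, SE 0.08, adjusted p = 5.84e-05). Another was CG6295, at -0.73 (SE 0.22, adjusted p = 0.0439), whose call was kept in 5 of the 16 fits that left out 1 library. Of 39 digestive proteases 5 were called higher and 2 lower (median 0.04). The serine protease gene CG18179, not on that list, had 2899, 3783, 3006 and 3966 CPM in Hnf4i midguts of day 4 and 1729, 1776, 1505 and 1441 CPM in those of day 3. In control midguts CG18179 stood at 5508, 6157, 5764 and 5499 CPM on day 4 and 824, 917, 809 and 746 CPM on day 3. For CG18179 Hnf4i midguts were below the control range on day 4 and above it on day 3. The interaction of CG18179 was -1.72 (SE 0.14, adjusted p = 3.12e-06).

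Among proteases with an enlarged rise, Jon66Cii, a Jonah serine protease gene, had 1471, 1418, 1339 and 1729 CPM in Hnf4i midguts of day 4 and 77.5, 119, 265 and 150.2 CPM in those of day 3. In control midguts Jon66Cii stood at 718, 692, 1237 and 993 CPM on day 4 and 213, 247, 342 and 349.8 CPM on day 3. For Jon66Cii the genotypes overlapped on day 3 but not on day 4, when Hnf4i midguts were above the control range. The interaction of Jon66Cii was 1.62 (SE 0.40, adjusted p = 0.0186). The trypsin gene alphaTry averaged 334 ± 70.6 CPM in Hnf4i midguts of day 4 and 70.8 ± 8.12 CPM in those of day 3, against 175 ± 29 CPM in control midguts on day 4 and 70.3 ± 6.54 CPM on day 3 (interaction 0.92, SE 0.20, adjusted p = 0.00946). Jon65Ai averaged 2212 ± 68.8 CPM in Hnf4i midguts of day 4 and 894 ± 168 CPM in those of day 3, against 1928 ± 117 CPM in control midguts on day 4 and 1321 ± 98.7 CPM on day 3 (interaction 0.76, SE 0.14, adjusted p = 0.00244). Jon74E, by contrast, had a blunted rise, with 25.6 ± 7.98 CPM in Hnf4i midguts of day 4 and 27 ± 3.74 CPM in those of day 3, against 67.1 ± 5.23 CPM in control midguts on day 4 and 39 ± 2.68 CPM on day 3 (interaction -0.86, SE 0.23, adjusted p = 0.0283), called in 12 of the 16 fits that left out 1 library.

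Peroxisomes shorten very long fatty acids, and many of their genes were already lower in Hnf4i midguts on day 3. Of 14 genes of peroxisomal beta-oxidation tested 7 had a lower and 1 a higher interaction (median -0.49), and 11 were called lower in Hnf4i midguts on day 4 and 9 on day 3. Hacl, a 2-hydroxyacyl-CoA lyase gene, had 168, 244, 137 and 144 CPM in Hnf4i midguts of day 4 and 189.7, 218, 220.1 and 195 CPM in those of day 3. In control midguts Hacl stood at 1126, 1149, 1122 and 1087 CPM on day 4 and 772, 761, 721 and 726 CPM on day 3. Without overlap, Hacl in Hnf4i midguts stayed below control on each day. The silencing effect on Hacl was -2.7 on day 4 and -1.86 on day 3 (interaction -0.84, SE 0.18, adjusted p = 0.00742). The acyl-CoA oxidase gene Acox57D-p averaged 222 ± 29.6 CPM in Hnf4i midguts of day 4 and 107 ± 3.98 CPM in those of day 3, against 466 ± 40.8 CPM in control midguts on day 4 and 137 ± 11.7 CPM on day 3 (interaction -0.71, SE 0.12, adjusted p = 0.00148). Mfe2, the multifunctional enzyme of the pathway, averaged 379.7 ± 62.2 CPM in Hnf4i midguts of day 4 and 269 ± 6.83 CPM in those of day 3, against 1435 ± 94.8 CPM in control midguts on day 4 and 639 ± 56.6 CPM on day 3 (interaction -0.67, SE 0.13, adjusted p = 0.0034). ScpX, a thiolase gene, averaged 182 ± 32.4 CPM in Hnf4i midguts of day 4 and 86.3 ± 4.39 CPM in those of day 3, against 722 ± 22.7 CPM in control midguts on day 4 and 220.1 ± 6.54 CPM on day 3 (interaction -0.63, SE 0.12, adjusted p = 0.00356). Its neighbour CG17597 averaged 209.9 ± 33.5 CPM in Hnf4i midguts of day 4 and 130.0 ± 4.3 CPM in those of day 3, against 1243 ± 80.1 CPM in control midguts on day 4 and 459 ± 19.4 CPM on day 3 (interaction -0.75, SE 0.12, adjusted p = 7.56e-04).

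One oxidase gene went the other way. CG17544, predicted to encode an acyl-CoA oxidase, had 19.6, 17, 21.6 and 18.3 CPM in Hnf4i midguts of day 4 and 9.03, 8.16, 7.47 and 7.0 CPM in those of day 3. In control midguts CG17544 stood at 9.98, 9.54, 11 and 11.6 CPM on day 4 and 7.86, 8.53, 9.24 and 9.31 CPM on day 3. CG17544 in Hnf4i midguts was above the control range on day 4, with overlap on day 3. It rose by 1.27 in Hnf4i midguts, and its change of 0.27 in control midguts was under the size called (interaction 1.01, SE 0.14, adjusted p = 2.19e-04). Peroxins, which import proteins into peroxisomes and build them, had lower interactions in 4 of 13 (median -0.39). For the import receptor gene Pex5, values were 28.6, 34.8, 29.7 and 31 CPM in Hnf4i midguts of day 4 and 33.5, 34.3, 35.8 and 35.2 CPM in those of day 3. In control midguts Pex5 stood at 90.8, 92.7, 86.5 and 96.6 CPM on day 4 and 70.8, 72.8, 69.5 and 67.2 CPM on day 3. For Pex5 the Hnf4i libraries were below the control range on day 4 and again on day 3. The log2 change between the days was -0.16 in Hnf4i midguts and 0.39 in control midguts, both under the size called, while their difference was -0.55 (SE 0.08, adjusted p = 4.82e-04). Pex11ab at -0.58 (SE 0.10, adjusted p = 0.00113), Pex6 at -0.55 (SE 0.09, adjusted p = 9.95e-04) and Pex10 at -0.52 (SE 0.14, adjusted p = 0.0273) were called too. Exons of Pex5 and Pex10 overlap those of other genes on the other strand.

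Genes of mitochondrial beta-oxidation were lower in Hnf4i midguts on both days more often than they had an interaction. Of 23 genes on the list 17 were lower in Hnf4i midguts on day 4 and 16 on day 3, but only 1 had a lower and 1 a higher interaction (median -0.19). The gene called lower, CG9547, is predicted to encode glutaryl-CoA dehydrogenase, an enzyme of amino acid breakdown rather than of fatty acid beta-oxidation. It had 145, 139, 133 and 137 CPM in Hnf4i midguts of day 4 and 130.4, 138, 143 and 139.7 CPM in those of day 3. In control midguts CG9547 stood at 229.6, 237, 225 and 225 CPM on day 4 and 130.2, 134, 138 and 146 CPM on day 3. CG9547 overlapped between the genotypes on day 3, while on day 4 every Hnf4i value was below every control value. The interaction of CG9547 was -0.74 (SE 0.07, adjusted p = 7.94e-06). The thiolase gene yip2 had 61.2, 126, 71.3 and 80.5 CPM in Hnf4i midguts of day 4 and 19.4, 23.9, 24.2 and 22.1 CPM in those of day 3. In control midguts yip2 stood at 527, 560.3, 559 and 560.4 CPM on day 4 and 279, 281, 245 and 277 CPM on day 3. On both days every Hnf4i value of yip2 was below every control value. On the log2 scale its rise was enlarged, at 1.92 in Hnf4i and 1.03 in control midguts (interaction 0.89, SE 0.22, adjusted p = 0.0173), but in CPM the gain was smaller in Hnf4i midguts, by 219 CPM. Of the members with a higher interaction 250 of 254 had the same sign in the difference of CPM gains, and 232 of 239 of those with a lower one.

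Genes that handle foreign compounds were called in both directions. The glycosyltransferase gene Ugt37A1, which had the lowest interaction among members at 10 CPM or more in a group and called in all 16 fits that left out 1 library, had 18.7, 10.8, 14 and 5.23 CPM in Hnf4i midguts of day 4 and 76.3, 42.6, 29 and 40.4 CPM in those of day 3. In control midguts Ugt37A1 stood at 6.3, 6.65, 7.46 and 9.35 CPM on day 4 and 5.0, 2.3, 5.23 and 3.25 CPM on day 3. For Ugt37A1 the genotypes overlapped on day 4, while on day 3 every Hnf4i value was above the control range. The change was -1.95 in Hnf4i midguts and 0.91 in control midguts (interaction -2.85, SE 0.49, adjusted p = 0.0015). Ugt37A3 had 519, 678, 684 and 889 CPM in Hnf4i midguts of day 4 and 343, 179.5, 146 and 267 CPM in those of day 3. In control midguts Ugt37A3 stood at 324, 376, 576 and 477 CPM on day 4 and 509, 465, 397 and 320.1 CPM on day 3. For Ugt37A3 the genotypes overlapped on both days. The interaction of Ugt37A3, a new rise, was 1.51 (SE 0.34, adjusted p = 0.0107). Its neighbour Ugt37A2 averaged 1176 ± 259.5 CPM in Hnf4i midguts of day 4 and 684 ± 124 CPM in those of day 3, against 531 ± 88.3 CPM in control midguts on day 4 and 599 ± 129 CPM on day 3 (interaction 0.96, SE 0.25, adjusted p = 0.025), a call kept in 9 of the 16 fits that left out 1 library. Of 30 UDP-glycosyltransferases 4 were higher and 3 lower (median -0.10).

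Of 68 genes tested on the cytochrome P450 list 5 were higher and 6 lower (median -0.29). The list also held Cyp1 and Cyp40, cyclophilin genes of similar name, and neither was called. Cyp316a1 had 9.47, 10.4, 6.42 and 6.61 CPM in Hnf4i midguts of day 4 and 5.93, 5.4, 4.59 and 4.77 CPM in those of day 3. In control midguts Cyp316a1 stood at 32, 35.1, 32.1 and 32.2 CPM on day 4 and 6.7, 6.64, 6.42 and 7.65 CPM on day 3. On both days every Hnf4i value of Cyp316a1 was below every control value. The interaction of Cyp316a1, a blunted rise, was -1.59 (SE 0.19, adjusted p = 7.66e-05). The neighbours Cyp311a1 and Cyp318a1 both had lower interactions, at -1.0 (SE 0.13, adjusted p = 1.33e-04) and -1.26 (SE 0.24, adjusted p = 0.00276), the first as a blunted rise and the other as a new fall. Cyp4p1 had a new rise, with 52.2 ± 6.67 CPM in Hnf4i midguts of day 4 and 21.6 ± 2.99 CPM in those of day 3, against 23.2 ± 1.75 CPM in control midguts on day 4 and 18.9 ± 1.48 CPM on day 3 (interaction 0.97, SE 0.14, adjusted p = 4.54e-04). Of 32 glutathione S-transferases 1 was higher and 3 lower (median -0.16). GstD3 averaged 24.6 ± 5.27 CPM in Hnf4i midguts of day 4 and 43.2 ± 3.24 CPM in those of day 3, against 58.6 ± 10.6 CPM in control midguts on day 4 and 56.8 ± 3.39 CPM on day 3 (interaction -0.86, SE 0.19, adjusted p = 0.00878). GstS1, a fall enlarged in Hnf4i midguts, averaged 186 ± 48.2 CPM in Hnf4i midguts of day 4 and 604 ± 29 CPM in those of day 3, against 287 ± 27.7 CPM in control midguts on day 4 and 523 ± 32.6 CPM on day 3 (interaction -0.84, SE 0.19, adjusted p = 0.0094).

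Of 17 genes of metal binding and transport 3 had a lower interaction and 1 a higher one (median -0.15). MtnB, a metallothionein gene, had 65.3, 74.3, 79.7 and 74.8 CPM in Hnf4i midguts of day 4 and 98.8, 100.5, 72.3 and 77.6 CPM in those of day 3. In control midguts MtnB stood at 23.6, 35.1, 32.4 and 37.7 CPM on day 4 and 13.1, 15.3, 27.9 and 16.6 CPM on day 3. For MtnB the Hnf4i libraries were above the control range on day 4 and again on day 3. The silencing effect was 1.19 on day 4 and 2.26 on day 3 (interaction -1.07, SE 0.27, adjusted p = 0.021). The metal transporter gene Mvl averaged 293 ± 20.9 CPM in Hnf4i midguts of day 4 and 324 ± 51.7 CPM in those of day 3, against 219 ± 8.96 CPM in control midguts on day 4 and 155 ± 10.8 CPM on day 3 (interaction -0.65, SE 0.13, adjusted p = 0.00476). MtnA averaged 708 ± 67.8 CPM in Hnf4i midguts of day 4 and 493 ± 33.3 CPM in those of day 3, against 766 ± 57.4 CPM in control midguts on day 4 and 363 ± 27.9 CPM on day 3 (interaction -0.56, SE 0.11, adjusted p = 0.00432), a call that depended on Hnf4i day 4 replicate 1. The drosomycin-like peptide gene Drsl2 had 38.7, 27.2, 31.4 and 20.5 CPM in Hnf4i midguts of day 4 and 26.5, 33.8, 32.8 and 23.8 CPM in those of day 3. In control midguts Drsl2 stood at 0.643, 0.583, 1.16 and 1.25 CPM on day 4 and 0.331, 0.179, 0.37 and 0.407 CPM on day 3. Without overlap, Drsl2 in Hnf4i midguts stayed above control on each day. Its interaction of -1.44 (SE 0.40, adjusted p = 0.0335) was called in 9 of the 16 fits that left out 1 library.

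**Figure D3:**
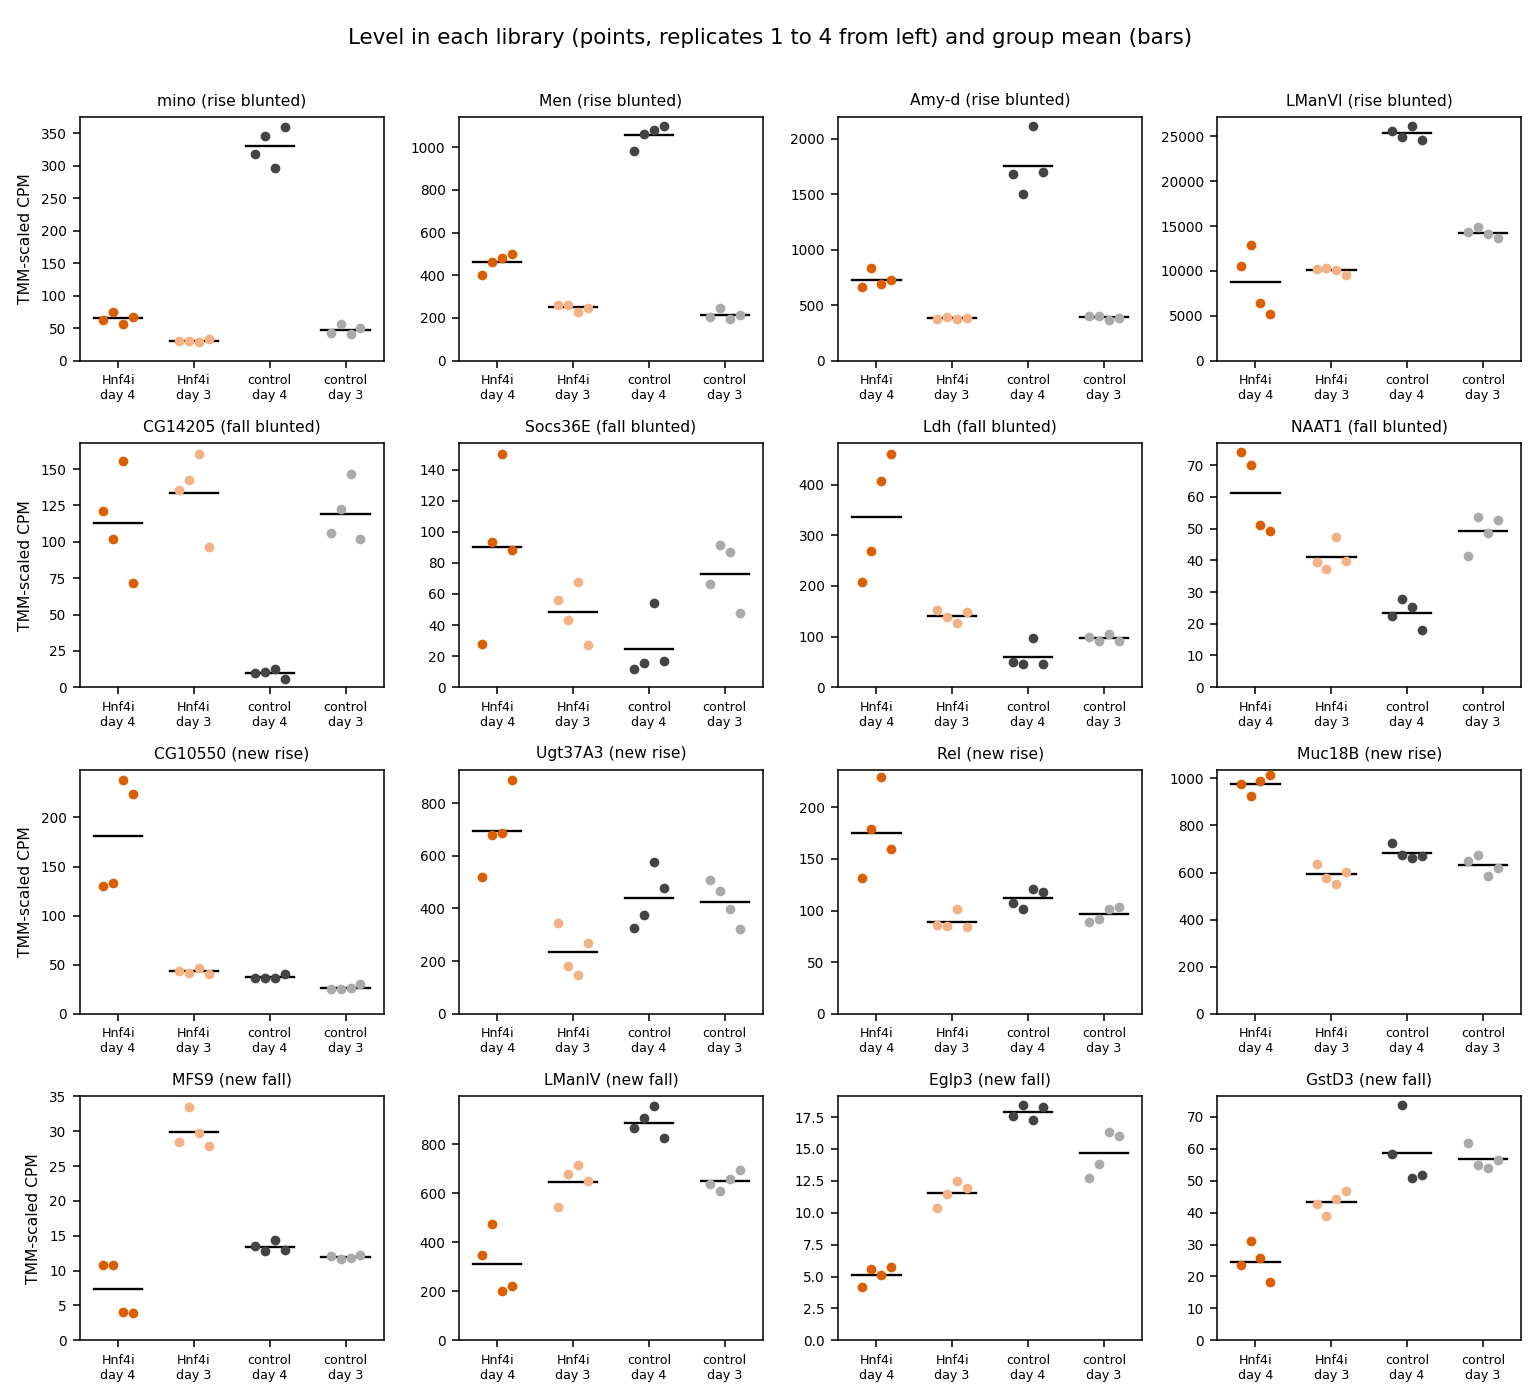
Points are the TMM-scaled CPM (y axis, from 0) of single libraries, replicates 1 to 4 from left within a group, and horizontal bars are group means, for 4 genes each with a blunted rise, a blunted fall, a new rise and a new fall. mino, Men and Amy-d stand apart in control midguts of day 4, while CG14205 is low there and high in the other 3 groups.

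Blunted falls were fewer and included signalling genes. A predicted acyltransferase gene, CG14205 (FBgn0031034, chromosome X, 19592609 to 19595548), had 121, 102, 156 and 71.5 CPM in Hnf4i midguts of day 4 and 136, 143, 160.1 and 96.6 CPM in those of day 3. In control midguts CG14205 stood at 9.69, 10.3, 12.4 and 5.8 CPM on day 4 and 106, 123, 147 and 102 CPM on day 3. CG14205 in Hnf4i midguts was above the control range on day 4, with overlap on day 3. Its change was -0.25 and not called in Hnf4i midguts, and it fell by 3.64 in control midguts (interaction 3.39, SE 0.33, adjusted p = 1.46e-05). Next to it CG14219 had 128, 80.8, 127 and 98.7 CPM in Hnf4i midguts of day 4 and 106, 113, 102 and 90.5 CPM in those of day 3. In control midguts CG14219 stood at 13.7, 19.1, 15.1 and 8.5 CPM on day 4 and 61.6, 61.5, 74.4 and 56.6 CPM on day 3. For CG14219 the Hnf4i libraries were above the control range on day 4 and again on day 3. Its change was 0.08 and not called in Hnf4i midguts, against -2.17 in control midguts (interaction 2.24, SE 0.26, adjusted p = 6.39e-05). The third gene of the row, CG14204, had 15.8, 6.08, 7.89 and 6.01 CPM in Hnf4i midguts of day 4 and 0.199, 0.258, 0.305 and 0.0739 CPM in those of day 3. In control midguts CG14204 stood at 0.532, 0.0278, 0.178 and 0.134 CPM on day 4 and 0.348, 0.377, 0.807 and 0.172 CPM on day 3. CG14204 overlapped between the genotypes on day 3, while on day 4 every Hnf4i value was above every control value. The interaction of CG14204, a new rise called from low counts, was 6.44 (SE 0.85, adjusted p = 1.60e-04). Further blunted falls, for which no role is given here, were CG10911 and CG5550. CG10911 averaged 493 ± 83.9 CPM in Hnf4i midguts of day 4 and 389.6 ± 28.2 CPM in those of day 3, against 99.3 ± 17.8 CPM in control midguts on day 4 and 365 ± 40.9 CPM on day 3 (interaction 2.22, SE 0.18, adjusted p = 3.12e-06). CG5550 averaged 367 ± 47.8 CPM in Hnf4i midguts of day 4 and 172 ± 38.4 CPM in those of day 3, against 93.9 ± 26.6 CPM in control midguts on day 4 and 239.9 ± 38.6 CPM on day 3 (interaction 2.44, SE 0.26, adjusted p = 3.24e-05).

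The JAK-STAT pathway carries a cytokine signal from the upd ligands through a receptor to a transcription factor, and in the gut it answers stress and damage. The ligand gene upd3 had 5.8, 4.35, 17.1 and 8.88 CPM in Hnf4i midguts of day 4 and 2.09, 1.87, 2.18 and 2.09 CPM in those of day 3. In control midguts upd3 stood at 1.24, 0.666, 1.1 and 0.937 CPM on day 4 and 2.15, 2.15, 4.81 and 1.61 CPM on day 3. upd3 in Hnf4i midguts was above the control range on day 4, with overlap on day 3. upd3 rose by 2.13 in Hnf4i midguts and changed by -1.45 in control midguts (interaction 3.59, SE 0.56, adjusted p = 6.39e-04). A further ligand gene, upd2, averaged 1.46 ± 0.239 CPM in Hnf4i midguts of day 4 and 0.649 ± 0.201 CPM in those of day 3, against 0.558 ± 0.244 CPM in control midguts on day 4 and 1.21 ± 0.427 CPM on day 3 (interaction 2.28, SE 0.47, adjusted p = 0.00539). Socs36E, a target and feedback inhibitor of the pathway, had 28.1, 93.5, 150.1 and 88.5 CPM in Hnf4i midguts of day 4 and 55.8, 43.5, 67.5 and 26.9 CPM in those of day 3. In control midguts Socs36E stood at 11.5, 15.4, 54 and 16.6 CPM on day 4 and 66.2, 91.3, 86.9 and 47.5 CPM on day 3. For Socs36E the genotypes overlapped on both days. On day 4 Hnf4i replicate 1 stood below control replicate 3. The interaction of Socs36E was 2.47 (SE 0.68, adjusted p = 0.0316), called in 8 of the 16 fits that left out 1 library. Of 9 genes of this list tested 3 were higher, and the median was 2.28.

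Ets21C, a transcription factor gene of the JNK stress response, had 6.78, 10.4, 18.9 and 10.9 CPM in Hnf4i midguts of day 4 and 2.88, 4.01, 3.57 and 3.22 CPM in those of day 3. In control midguts Ets21C stood at 0.643, 0.833, 2.51 and 0.893 CPM on day 4 and 3.71, 3.93, 4.62 and 2.53 CPM on day 3. Ets21C overlapped between the genotypes on day 3, while on day 4 every Hnf4i value was above every control value. It changed by 1.78 in Hnf4i midguts and by -1.59 in control midguts (interaction 3.36, SE 0.50, adjusted p = 4.82e-04). kay, the fly Fos gene of the same response, had 171, 184, 248 and 178 CPM in Hnf4i midguts of day 4 and 129, 103, 116 and 98.3 CPM in those of day 3. In control midguts kay stood at 96.4, 96.8, 127 and 104 CPM on day 4 and 121, 138, 136 and 97.3 CPM on day 3. kay in Hnf4i midguts was above the control range on day 4, with overlap on day 3. The interaction of kay, a new rise, was 1.03 (SE 0.19, adjusted p = 0.00259). Of both, Hnf4i day 4 replicate 3, the library with the lowest summed fat body markers of its group, had the highest level. The fit without the 4 libraries keeps only that replicate in the group, so its interactions of 4.71 and 1.5 rest on it. Thor, which encodes the translation inhibitor 4E-BP, had 140.2, 186, 271 and 206 CPM in Hnf4i midguts of day 4 and 169.7, 217, 238 and 125 CPM in those of day 3. In control midguts Thor stood at 37.3, 53.3, 102 and 83.1 CPM on day 4 and 248, 228, 335 and 184 CPM on day 3. For Thor the genotypes overlapped on day 3 but not on day 4, when Hnf4i midguts were above the control range. Thor changed by 0.10 in Hnf4i midguts and by -1.85 in control midguts (interaction 1.95, SE 0.40, adjusted p = 0.00579).

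Ldh, which turns pyruvate into lactate, had 209, 268, 407 and 461 CPM in Hnf4i midguts of day 4 and 153, 138, 127 and 148 CPM in those of day 3. In control midguts Ldh stood at 49.7, 45.7, 96.4 and 45.5 CPM on day 4 and 90.9 to 104 CPM on day 3. Without overlap, Ldh in Hnf4i midguts stayed above control on each day. Among the control libraries of day 4 replicate 3 was the highest. The interaction of Ldh was 1.95 (SE 0.34, adjusted p = 0.00147). Of 15 genes of glycolysis and gluconeogenesis 1 was higher and 1 lower (median -0.13), the lower one being Pepck2 at -0.52 (SE 0.13, adjusted p = 0.0154). NAAT1, a transporter of essential amino acids, had 74.1, 70.1, 51 and 49.3 CPM in Hnf4i midguts of day 4 and 39.6, 37.2, 47.3 and 39.8 CPM in those of day 3. In control midguts NAAT1 stood at 22.4, 27.7, 25.2 and 18.1 CPM on day 4 and 41.5, 53.6, 48.7 and 52.8 CPM on day 3. NAAT1 in Hnf4i midguts was above the control range on day 4, with overlap on day 3. It rose by 0.58 in Hnf4i midguts and fell in control midguts, with a change of -1.07 (interaction 1.65, SE 0.20, adjusted p = 1.00e-04). In the opposite direction acs (arcus), an amino acid transporter gene, had 10.3, 17, 13.8 and 12.7 CPM in Hnf4i midguts of day 4 and 1.49, 1.91, 2.18 and 2.27 CPM in those of day 3. In control midguts acs stood at 65.3, 67.3, 90.5 and 76.4 CPM on day 4 and 3.23, 3.45, 3.4 and 3.27 CPM on day 3. For acs the Hnf4i libraries were below the control range on day 4 and again on day 3. The interaction of acs, a blunted rise, was -1.72 (SE 0.21, adjusted p = 9.29e-05). path, another amino acid transporter gene, was called lower as well, at -0.59 (SE 0.15, adjusted p = 0.0209), but not without control day 4 replicate 1. The list of sugar, amino acid and peptide transporters had 1 higher and 2 lower of 20 tested (median 0.12).

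Of the 110 new rises 80 were called different between the genotypes on day 4 only. The member of largest interaction by the rule for naming was CG10550, which had 130.3, 133, 238 and 224 CPM in Hnf4i midguts of day 4 and 43.5, 42, 47 and 40.4 CPM in those of day 3. In control midguts CG10550 stood at 36.1, 36.7, 36.2 and 40.6 CPM on day 4 and 25.4, 25.5, 25.8 and 30.3 CPM on day 3. Without overlap, CG10550 in Hnf4i midguts stayed above control on each day. The silencing effect was 2.28 on day 4 and 0.69 on day 3 (interaction 1.58, SE 0.22, adjusted p = 2.91e-04). CG10550 is one of a row of genes of the ecdysteroid kinase-like family on chromosome 3R. In that row CG13659 averaged 201 ± 40.9 CPM in Hnf4i midguts of day 4 and 103 ± 0.326 CPM in those of day 3, against 105 ± 6.49 CPM in control midguts on day 4 and 116 ± 10.3 CPM on day 3 (interaction 1.11, SE 0.15, adjusted p = 2.24e-04). CG10559 averaged 11.3 ± 4.18 CPM in Hnf4i midguts of day 4 and 4.89 ± 0.626 CPM in those of day 3, against 5.49 ± 0.93 CPM in control midguts on day 4 and 6.54 ± 0.876 CPM on day 3 (interaction 1.46, SE 0.28, adjusted p = 0.0034). CG31370 at 0.88 (SE 0.16, adjusted p = 0.0018), CG31436 at 0.81 (SE 0.20, adjusted p = 0.0185) and CG31087 at 0.54 (SE 0.12, adjusted p = 0.00889) were higher too, the last in 13 of the 16 fits that left out 1 library.

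Rel, the NF-kB factor of the IMD immune pathway, had 132, 179, 229 and 159.9 CPM in Hnf4i midguts of day 4 and 86, 84.7, 101 and 83.9 CPM in those of day 3. In control midguts Rel stood at 108, 102, 121 and 118 CPM on day 4 and 88.7, 91.9, 102 and 103 CPM on day 3. Rel in Hnf4i midguts was above the control range on day 4, with overlap on day 3. The interaction of Rel was 0.76 (SE 0.18, adjusted p = 0.0126). Of 10 antimicrobial and IMD feedback genes tested 2 were higher, with a median of 0.99. Muc18B, a mucin gene of the gut lining, had 977, 926, 988 and 1014 CPM in Hnf4i midguts of day 4 and 634, 578, 552 and 604 CPM in those of day 3. In control midguts Muc18B stood at 723, 673, 662 and 668 CPM on day 4 and 651, 674, 584 and 619 CPM on day 3. For Muc18B the genotypes overlapped on day 3 but not on day 4, when Hnf4i midguts were above the control range. The interaction of Muc18B was 0.61 (SE 0.08, adjusted p = 1.30e-04). Muc55B averaged 4311 ± 826 CPM in Hnf4i midguts of day 4 and 1887 ± 411 CPM in those of day 3, against 2739 ± 143 CPM in control midguts on day 4 and 2048 ± 316 CPM on day 3 (interaction 0.77, SE 0.21, adjusted p = 0.0289), and its call was kept in 7 of the 16 fits that left out 1 library. Alas, the first enzyme of heme synthesis, had 271, 255, 414 and 517 CPM in Hnf4i midguts of day 4 and 169, 184, 155 and 168 CPM in those of day 3. In control midguts Alas stood at 142, 147, 167 and 165 CPM on day 4 and 188, 170.3, 173 and 153 CPM on day 3. Alas overlapped between the genotypes on day 3, while on day 4 every Hnf4i value was above every control value. The interaction of Alas was 1.25 (SE 0.23, adjusted p = 0.00259). Within Hnf4i midguts of day 4 replicates 3 and 4 were the higher ones for Alas and CG10550. puml, a lipid droplet-associated enzyme gene, averaged 321 ± 83.3 CPM in Hnf4i midguts of day 4 and 181 ± 3.4 CPM in those of day 3, against 124 ± 16.5 CPM in control midguts on day 4 and 172 ± 17 CPM on day 3 (interaction 1.30, SE 0.20, adjusted p = 5.38e-04), with exons that overlap those of cathD on the other strand. Sil1, an exchange factor for the chaperone BiP, averaged 44.4 ± 7.7 CPM in Hnf4i midguts of day 4 and 23.6 ± 3.11 CPM in those of day 3, against 23.8 ± 4.14 CPM in control midguts on day 4 and 30.1 ± 3.42 CPM on day 3 (interaction 1.26, SE 0.19, adjusted p = 5.38e-04). Sil1 was the only called gene of 16 tested on the list of endoplasmic reticulum stress (median 0.02).

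The gene mex1, whose regulatory sequence gives the mex-GAL4 driver its name, was itself a new rise. It had 458, 474, 436 and 388 CPM in Hnf4i midguts of day 4 and 259.5, 262, 328 and 293 CPM in those of day 3. In control midguts mex1 stood at 370.3, 359, 384 and 329 CPM on day 4 and 348, 344, 355 and 365 CPM on day 3. For mex1 Hnf4i midguts were above the control range on day 4 and below it on day 3. The interaction of mex1 was 0.59 (SE 0.11, adjusted p = 0.00238), beside -0.06 and not called for the Hnf4 transcript.

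Among the new falls, MFS9, of the major facilitator family of membrane transporters, had 10.8, 10.8, 4.02 and 3.86 CPM in Hnf4i midguts of day 4 and 28.5, 33.5, 29.7 and 27.8 CPM in those of day 3. In control midguts MFS9 stood at 13.6, 12.8, 14.3 and 13 CPM on day 4 and 12.1, 11.6, 11.8 and 12.3 CPM on day 3. The order of the genotypes turned round for MFS9, with every Hnf4i value below control on day 4 and above it on day 3. The interaction of MFS9 was -2.19 (SE 0.35, adjusted p = 7.56e-04). Replicates 3 and 4 were the lowest of the Hnf4i libraries of day 4. Eglp3, a glycerol and water channel gene of the aquaglyceroporin family, had 4.15, 5.58, 5.12 and 5.73 CPM in Hnf4i midguts of day 4 and 10.3, 11.5, 12.4 and 11.9 CPM in those of day 3. In control midguts Eglp3 stood at 17.6, 18.4, 17.3 and 18.3 CPM on day 4 and 12.7, 13.8, 16.3 and 16 CPM on day 3. Without overlap, Eglp3 in Hnf4i midguts stayed below control on each day. The interaction of Eglp3 was -1.45 (SE 0.14, adjusted p = 1.46e-05). CG1208, a predicted sugar transporter gene, averaged 217 ± 71.6 CPM in Hnf4i midguts of day 4 and 362 ± 10.8 CPM in those of day 3, against 543 ± 30.3 CPM in control midguts on day 4 and 427 ± 17.6 CPM on day 3 (interaction -1.09, SE 0.21, adjusted p = 0.0034). CAH9, a carbonic anhydrase gene, averaged 8.19 ± 1.94 CPM in Hnf4i midguts of day 4 and 17.2 ± 2.01 CPM in those of day 3, against 24.8 ± 2.79 CPM in control midguts on day 4 and 25.5 ± 0.901 CPM on day 3 (interaction -1.03, SE 0.19, adjusted p = 0.0022). MsrA, a methionine sulfoxide reductase gene first found as ecdysone-induced, averaged 43.2 ± 15.5 CPM in Hnf4i midguts of day 4 and 94.2 ± 27.6 CPM in those of day 3, against 99 ± 10.2 CPM in control midguts on day 4 and 104 ± 5.63 CPM on day 3 (interaction -1.06, SE 0.30, adjusted p = 0.0391), called in 5 of the 16 fits that left out 1 library.

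Enlarged rises held the member with the highest interaction at 10 CPM or more, but that value rested on the libraries highest in fat body transcripts. Lsp1gamma had 418, 382, 12 and 1089.8 CPM in Hnf4i midguts of day 4 and 7.78, 6.34, 5.38 and 3.22 CPM in those of day 3. In control midguts Lsp1gamma stood at 22.5, 29.2, 69.2 and 35.7 CPM on day 4 and 8.83, 5.12, 11.1 and 11.1 CPM on day 3. For Lsp1gamma the genotypes overlapped on both days. The interaction of 4.28 (SE 1.07, adjusted p = 0.0202) turned to -0.58 without the 4 libraries. Of the 8 fat body markers tested, Lsp1gamma alone was called, with a median of 3.15 over the 8. CG31810, a predicted short-chain dehydrogenase gene, had 28.2, 18.8, 33.8 and 30.5 CPM in Hnf4i midguts of day 4 and 4.45, 3.64, 3.71 and 4.34 CPM in those of day 3. In control midguts CG31810 stood at 4.08, 3.79, 2.74 and 3.79 CPM on day 4 and 2.17, 1.9, 2.45 and 2.38 CPM on day 3. For CG31810 the Hnf4i libraries were above the control range on day 4 and again on day 3. The interaction of CG31810 was 2.10 (SE 0.23, adjusted p = 4.41e-05), and 2.30 without the 4 libraries. The aspartic protease gene Bace had 376, 252, 204 and 163 CPM in Hnf4i midguts of day 4 and 15.1, 19.7, 14.8 and 15.3 CPM in those of day 3. In control midguts Bace stood at 116, 105, 159.5 and 127 CPM on day 4 and 31.3, 30.1, 28 and 31.9 CPM on day 3. In Hnf4i libraries Bace was above the control range on day 4 but below it on day 3. The interaction of Bace was 1.87 (SE 0.27, adjusted p = 4.27e-04). ref(2)P, the fly p62 adaptor of autophagy, had 655, 653, 993 and 982 CPM in Hnf4i midguts of day 4 and 179.9, 169, 178 and 177 CPM in those of day 3. In control midguts ref(2)P stood at 281, 284, 385 and 328 CPM on day 4 and 164, 166, 172 and 149 CPM on day 3. ref(2)P in Hnf4i midguts was above the control range on day 4, with overlap on day 3. The interaction of ref(2)P was 1.25 (SE 0.19, adjusted p = 4.54e-04).

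CG7720, a predicted sodium-coupled transporter gene, had 234, 214, 283 and 315 CPM in Hnf4i midguts of day 4 and 56.6, 36.5, 39.4 and 44.1 CPM in those of day 3. In control midguts CG7720 stood at 345, 313, 319 and 363 CPM on day 4 and 231, 221, 165 and 202 CPM on day 3. For CG7720 the genotypes overlapped on day 4, while on day 3 every Hnf4i value was below the control range. The silencing effect was -0.36 on day 4 and -2.21 on day 3 (interaction 1.86, SE 0.20, adjusted p = 3.24e-05). CG15818 had a higher mean in Hnf4i midguts on day 4 and a lower one on day 3, with 195 ± 45.5 CPM in Hnf4i midguts of day 4 and 27 ± 2.97 CPM in those of day 3, against 77.8 ± 5.34 CPM in control midguts on day 4 and 45.8 ± 7.82 CPM on day 3 (interaction 2.09, SE 0.20, adjusted p = 1.46e-05). The peptide hormone gene ITP averaged 21.5 ± 1.23 CPM in Hnf4i midguts of day 4 and 7.34 ± 0.618 CPM in those of day 3, against 12.2 ± 1.72 CPM in control midguts on day 4 and 7.38 ± 0.344 CPM on day 3 (interaction 0.83, SE 0.13, adjusted p = 6.39e-04). The sterol-binding family gene Npc2f averaged 193 ± 31.6 CPM in Hnf4i midguts of day 4 and 25.6 ± 1.18 CPM in those of day 3, against 123 ± 7.92 CPM in control midguts on day 4 and 28.1 ± 0.748 CPM on day 3 (interaction 0.79, SE 0.12, adjusted p = 6.71e-04). Npc2f was the only called gene of 14 tested on the list of lipoproteins and sterol transport (median 0.1).

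Of the 6 shapes with a called change, enlarged falls kept the smallest share of their calls: of 39 genes 14 were called with the same sign in all 16 fits that left out 1 library, and 13 kept the call without the 4 libraries. The count of enlarged falls itself was 23 without Hnf4i day 3 replicate 4, without control day 4 replicate 1 or without control day 3 replicate 1, 24 without control day 4 replicate 3, 19 without control day 4 replicate 4 and 22 without control day 3 replicate 2. Summed tracheal markers, given above, were lower on day 4 as well, and their part in the enlarged falls was not tested. CG6012 had 3.24, 3.46, 3.33 and 1.95 CPM in Hnf4i midguts of day 4 and 17.2, 14.1, 21.1 and 18.1 CPM in those of day 3. In control midguts CG6012 stood at 9.66, 7.82, 6.08 and 6.94 CPM on day 4 and 14.7, 17.9, 17 and 19.4 CPM on day 3. CG6012 overlapped between the genotypes on day 3, while on day 4 every Hnf4i value was below every control value. The interaction of CG6012 was -1.38 (SE 0.24, adjusted p = 0.00161). CG9864, of a predicted transporter family, averaged 10.5 ± 3.37 CPM in Hnf4i midguts of day 4 and 42.6 ± 6.91 CPM in those of day 3, against 23.1 ± 2.93 CPM in control midguts on day 4 and 40.7 ± 2.42 CPM on day 3 (interaction -1.20, SE 0.24, adjusted p = 0.00454). CG13051 had 0.0362, 0.0432, 0 and 0.0764 CPM in Hnf4i midguts of day 4 and 103, 191, 101 and 101 CPM in those of day 3. In control midguts CG13051 stood at 0.31, 0.611, 0.302 and 0.424 CPM on day 4 and 164, 107, 138 and 135 CPM on day 3. CG13051 in Hnf4i midguts was below the control range on day 4, with overlap on day 3.

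Ribosomal protein genes and the nuclear genes of the respiratory chain held no members. Ribosome biogenesis genes held 1 of 28, which does not set them apart. Over all genes tested 2.59% were called higher and 2.44% lower. Of 28 ribosome biogenesis genes 26 fell in Hnf4i midguts and 27 in control midguts, with median changes of -2.19 in each. Only Nop17l, a chaperone cofactor gene, was called for the interaction, at 0.57 (SE 0.13, adjusted p = 0.0103), and the median was 0.03. Of 85 ribosomal protein genes edgeR called 0 for the interaction, as did DESeq2 and limma-voom, although 49 were lower at an unadjusted p under 0.05. Their changes between the days were small beside those of ribosome biogenesis, with medians of -0.59 in Hnf4i midguts and -0.44 in control midguts, near the size called. By the calls 62 of the 85 fell in Hnf4i midguts and 19 in control midguts. Their median interaction was -0.14, beside -0.01 for all genes tested. Of 73 nuclear genes of the respiratory chain and ATP synthase edgeR, DESeq2 and limma-voom called 0, with 18 lower at an unadjusted p under 0.05 and a median of -0.16. Few of these 73 were called between the days, 1 rising and 5 falling in Hnf4i midguts and 1 rising and 3 falling in control midguts, and their median changes were -0.30 and -0.14.

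**Figure D4:**
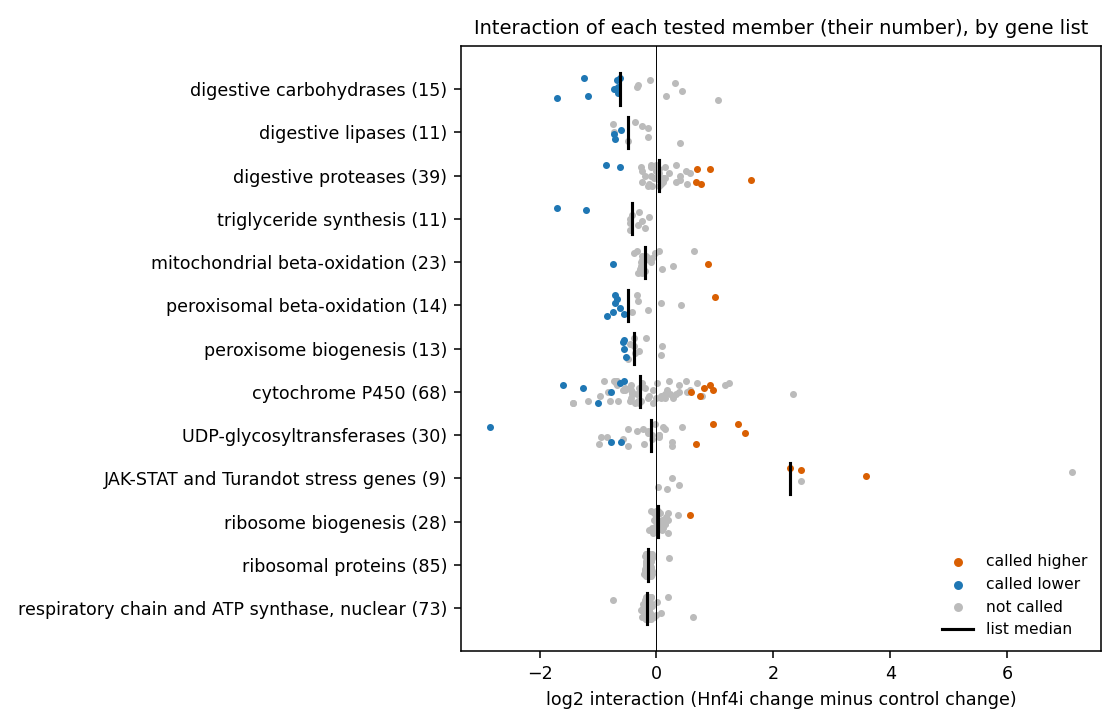
Points are the log2 interactions (x axis) of the tested members of 13 gene lists, with orange for called higher, blue for called lower, grey for not called and a black bar for the list median. Digestive carbohydrases (median -0.63) and peroxisomal beta-oxidation (median -0.49) lie mostly below 0, and ribosomal proteins cluster near their median of -0.14.

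Members were spread over the chromosomes. Lower interactions made up 2.12% to 2.77% and higher ones 1.56% to 2.93% of the genes tested on chromosome arms X, 2L, 2R, 3L and 3R. The X chromosome had 34 lower and 25 higher of 1607. Of 9775 pairs of adjacent tested genes 62 were called in the same direction, 38 higher and 24 lower, which involved 111 members, and 12 pairs were called in opposite directions. The longest row held 8 adjacent genes on chromosome 3R, between CG13659 (FBgn0039319, chromosome 3R, 25300891 to 25302317) and CG10553, all called higher. The 4 alpha-mannosidase genes formed a row of lower calls, from LManIII (FBgn0032066, chromosome 2L, 8765273 to 8768710) to LManVI (FBgn0032069, chromosome 2L, 8777661 to 8781252). Pairs called lower included Acox57D-p with Acox57D-d, CG17597 with ScpX, and Mal-A2 with Mal-A3, and pairs called higher included upd2 with upd3 and Jon65Aii with Jon65Ai. Relatives side by side may share reads, and exons of 64 members overlap those of another gene.

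Over all members 150 of 254 higher and 144 of 239 lower calls were kept in each of the 16 fits that left out 1 library. Without the 4 libraries 207 of the 254 and 157 of the 239 kept their call, and 1 member changed sign. With the summed fat body level as a covariate 226 and 195 were kept. Of the genes described above, Drsl2 (-1.16), MtnB (-0.92), path (-0.49), Pepck2 (-0.37), Cyp318a1 (-0.80), Jon66Cii (1.68) and Pex10 (-0.44) also lost the call without the 4 libraries, with the log2 interaction of that fit in parentheses. Drsl2 lost its call when any 1 of these was left out: Hnf4i day 3 replicates 2 and 3, control day 4 replicates 3 and 4 and control day 3 replicates 1, 2 and 3. Jon74E lost its call when any 1 of these was left out: Hnf4i day 3 replicate 3, control day 4 replicate 2 and control day 3 replicates 1 and 4. CG6295 lost its call when any 1 of these was left out: Hnf4i day 4 replicate 3, Hnf4i day 3 replicates 1, 2, 3 and 4, control day 4 replicates 1, 3 and 4 and control day 3 replicates 2, 3 and 4. path lost its call without control day 4 replicate 1. Desat1 lost its call without control day 3 replicate 3. MtnA lost its call without Hnf4i day 4 replicate 1. Pepck2 lost its call when any 1 of these was left out: Hnf4i day 4 replicates 1 and 2, Hnf4i day 3 replicate 2, control day 4 replicate 3 and control day 3 replicate 4. Socs36E lost its call when any 1 of these was left out: Hnf4i day 4 replicate 3, Hnf4i day 3 replicates 2 and 4, control day 4 replicates 1, 2 and 4 and control day 3 replicates 2 and 3. Ugt37A2 lost its call when any 1 of these was left out: Hnf4i day 4 replicates 3 and 4, Hnf4i day 3 replicates 2 and 3, control day 4 replicate 1 and control day 3 replicates 1 and 2. Muc55B lost its call when any 1 of these was left out: Hnf4i day 4 replicates 3 and 4, Hnf4i day 3 replicates 2, 3 and 4, control day 4 replicates 1 and 3 and control day 3 replicates 1 and 2. CG31087 lost its call when any 1 of these was left out: Hnf4i day 4 replicate 4, Hnf4i day 3 replicate 1 and control day 3 replicate 4. MsrA lost its call when any 1 of these was left out: Hnf4i day 4 replicates 3 and 4, Hnf4i day 3 replicates 2 and 3, control day 4 replicates 1, 2 and 3 and control day 3 replicates 1, 2, 3 and 4. ATPCL lost its call when any 1 of these was left out: Hnf4i day 4 replicate 4, Hnf4i day 3 replicate 4 and control day 3 replicates 2 and 4. CG13051 lost its call without Hnf4i day 4 replicate 3. Baldspot lost its call without Hnf4i day 4 replicate 3. Pex10 lost its call when any 1 of these was left out: Hnf4i day 4 replicate 1, Hnf4i day 3 replicate 2, control day 4 replicate 2 and control day 3 replicates 2 and 4. Near the size threshold CG12560 stood just inside at -0.50 and CG43774 just outside at 0.499.

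**Figure D5:**
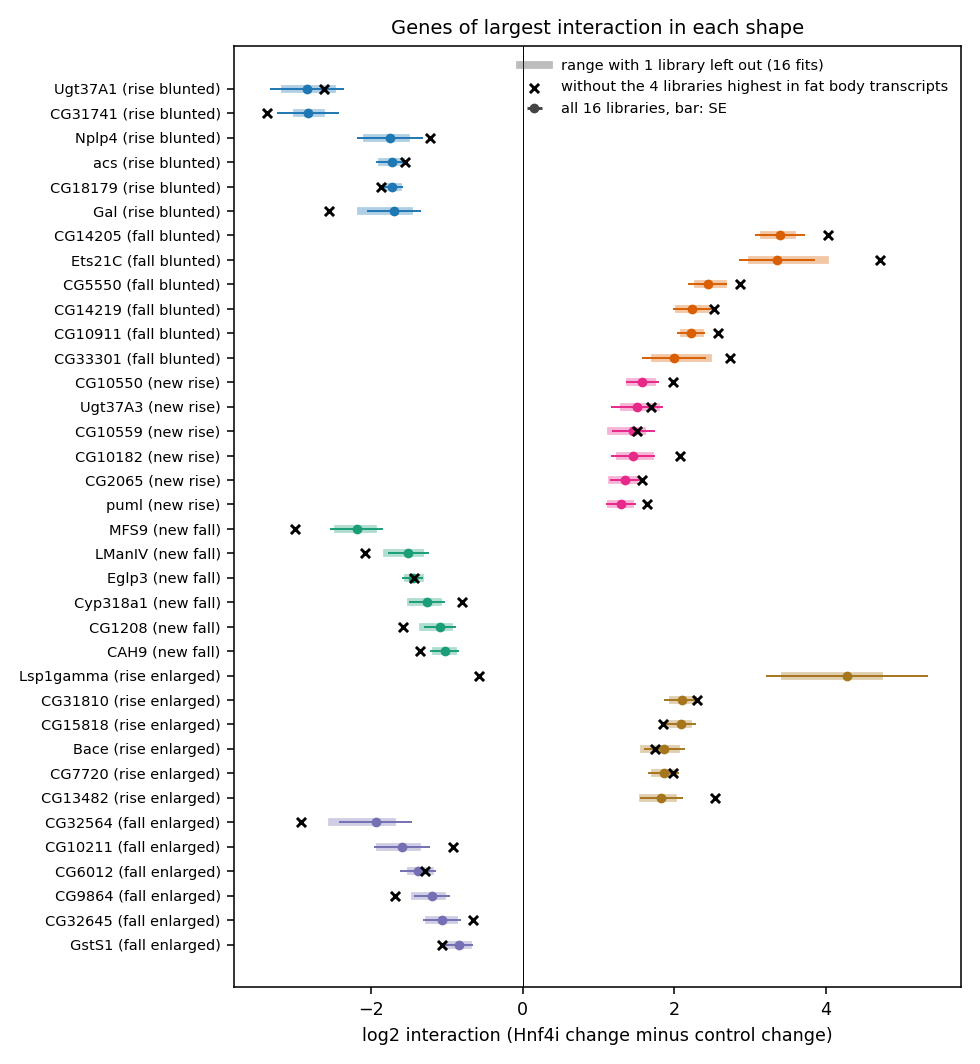
Points are the log2 interactions (x axis) of the 6 genes of largest interaction in each of 6 shapes with their SE, pale bars give the range over the 16 fits that left out 1 library, and crosses the value without the 4 libraries highest in fat body transcripts. The genes were chosen among those called with the same sign in all 16 of these fits, so no pale bar could cross 0. Of the crosses only that of Lsp1gamma, at -0.58, lies on the other side.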

How the data were processed

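RNA from dissected larval midguts was sequenced as stranded, polyA-selected libraries, with paired reads of 100 bases. According to the submitters' processing notes, the tools were STAR 2.7.10b for alignment to BDGP6, Trimmomatic 0.39 for trimming, and FastQC 0.11.7 and MultiQC 1.12 for quality reports. The counting tool, its use of strand and the annotation behind it were not given in the sources used here. In the deposited file, values are raw read counts per gene and library. A deposited table of CPM was not used, nor one of the authors' log2 fold changes and adjusted p-values for pairwise comparisons made with DESeq2 1.49.3 in R 4.5.1. Entries that are not genes held 0.0365 to 0.0489% of the counts and were left out.

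These counts were fitted with edgeR 4.0.16 (R 4.3.3): filterByExpr (minimum count 10, minimum total 15), TMM scaling, a mean for each of the 4 groups and glmQLFTest, two-sided, with Benjamini-Hochberg adjustment over the 9801 genes. CPM values are TMM-scaled. SE is an approximate standard error of the log2 interaction, its size divided by the square root of the F statistic of the test. Alternatives used DESeq2 1.42.0, limma 3.58.1 (voom), other filters, scaling and sets of libraries. The steps were tested on simulated data. All 17873 genes were matched by identifier to an Ensembl annotation of BDGP6, the source of positions and overlaps.

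Genes named were Hnf4, in each of 6 shapes the 6 of largest interaction with at least 10 CPM in a group and a call in all 16 fits that left out 1 library, the 3 largest per direction that lost it, up to 4 called members per list, and the fat body markers. Outside this rule ninaD, LManIII, LManV, LManVI, CG13659, CG31370, CG31436, CG31087, upd2, upd3, Thor, kay, CG14204, Mfe2, ScpX, Amy-p, Alas, ref(2)P and Mal-A3 and the genes named as neighbours or near the threshold were chosen after their values were seen. The members and all 44 lists (1100 of 1109 entries matched) were chosen with earlier results of these data known.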

Additional observations from a re-analysis of the deposited data

Results flagged for a closer look

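In 28 groups of 4 libraries 1 library stood farther from the other 3 than Dixon's 95% critical value for 4 values allows, of 472 groups of the 124 genes named, or 5.93%, where chance gives about 1 in 20. Control day 4 replicate 3 accounted for 9 of them. Its fat body transcripts stood at 26.7 CPM for Lsp1alpha, 29 CPM for Lsp1beta, 4.32 CPM for Fbp2, 6.55 CPM for apolpp, 2.7 CPM for fon and 4.2 CPM for Fbp1, against at most 0.555 CPM in the other 3 control libraries of day 4. Ets21C stood at 2.51 CPM there, against 0.643 to 0.893 CPM in the others. Socs36E stood at 54 CPM there, against 11.5 to 16.6 CPM in the others. Ldh stood at 96.4 CPM there, against 45.5 to 49.7 CPM in the others. In Hnf4i day 4 replicate 2, Mal-A3 stood at 2509 CPM against 2143 to 2173 CPM in the others. In Hnf4i day 4 replicate 3, Baldspot stood at 189 CPM against 127 to 136 CPM in the others. In Hnf4i day 4 replicate 4, CG6012 stood at 1.95 CPM against 3.24 to 3.46 CPM in the others. In Hnf4i day 3 replicate 2, Bace stood at 19.7 CPM against 14.8 to 15.3 CPM in the others, CG13069 stood at 127 CPM against 66.2 to 71.2 CPM in the others and CG13051 stood at 191 CPM against 101 to 103 CPM in the others. In Hnf4i day 3 replicate 3, Rel stood at 101 CPM against 83.9 to 86 CPM in the others. In Hnf4i day 3 replicate 4, GstS1 stood at 561 CPM against 616 to 623 CPM in the others. In control day 4 replicate 1, yip2 stood at 527 CPM against 559 to 560.4 CPM in the others. In control day 4 replicate 2, Cyp316a1 stood at 35.1 CPM against 32 to 32.2 CPM in the others, CG6295 stood at 3419 CPM against 4010.3 to 4124 CPM in the others and CG10211 stood at 10.6 CPM against 13.3 to 13.6 CPM in the others. In control day 4 replicate 4, CG10550 stood at 40.6 CPM against 36.1 to 36.7 CPM in the others and MsrA stood at 84 CPM against 103 to 106 CPM in the others. In control day 3 replicate 1, CG10211 stood at 16.3 CPM against 31.4 to 34.3 CPM in the others. In control day 3 replicate 3, upd3 stood at 4.81 CPM against 1.61 to 2.15 CPM in the others, CG13482 stood at 82.6 CPM against 60.7 to 63 CPM in the others and yip2 stood at 245 CPM against 277 to 281 CPM in the others. In control day 3 replicate 4, CG10550 stood at 30.3 CPM against 25.4 to 25.8 CPM in the others.

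The change between the days differed between the genotypes, by edgeR's test of the interaction, for 115 of the genes named, whose log2 interactions were as follows. Among the genes with a blunted rise, the interaction was -2.85 for Ugt37A1, -2.83 for CG31741, -1.75 for Nplp4, -1.72 for acs, -1.72 for CG18179, -1.70 for Gal, -1.70 for mino, -1.59 for Cyp316a1, -1.44 for Drsl2, -1.41 for Men, -1.24 for Amy-d, -1.24 for ninaD, -1.20 for Agpat2, -1.17 for Amyrel, -1.13 for LManIII, -1.08 for LManV, -1.07 for MtnB, -1.03 for LManVI, -1.0 for Cyp311a1, -0.86 for Jon74E, -0.84 for Hacl, -0.80 for Seipin, -0.75 for CG17597, -0.74 for CG9547, -0.73 for CG6295, -0.73 for Cht9, -0.71 for Acox57D-p, -0.71 for CG17191, -0.67 for Mfe2, -0.66 for Amy-p, -0.65 for Mvl, -0.63 for Mal-A3, -0.63 for ScpX, -0.59 for path, -0.57 for GstD8, -0.56 for Desat1, -0.56 for MtnA and -0.52 for Pepck2. Among the genes with a blunted fall, the interaction was 3.59 for upd3, 3.39 for CG14205, 3.36 for Ets21C, 2.47 for Socs36E, 2.44 for CG5550, 2.28 for upd2, 2.24 for CG14219, 2.22 for CG10911, 2.0 for CG33301, 1.95 for Ldh, 1.95 for Thor, 1.65 for NAAT1, 1.11 for Muc68E and 0.57 for Nop17l. Among the genes with a new rise, the interaction was 6.44 for CG14204, 1.87 for CG7120, 1.58 for CG10550, 1.51 for Ugt37A3, 1.46 for CG10559, 1.45 for CG10182, 1.44 for CG43348, 1.40 for Ugt35C1, 1.35 for CG2065, 1.30 for puml, 1.26 for Sil1, 1.25 for Alas, 1.11 for CG13659, 1.03 for kay, 1.01 for CG17544, 0.97 for Cyp4p1, 0.96 for Ugt37A2, 0.81 for CG31436, 0.77 for Muc55B, 0.76 for Rel, 0.61 for Muc18B, 0.59 for mex1, 0.54 for CG31087 and 0.52 for GstE10. Among the genes with a new fall, the interaction was -2.19 for MFS9, -1.51 for LManIV, -1.45 for Eglp3, -1.26 for Cyp318a1, -1.09 for CG1208, -1.06 for MsrA, -1.03 for CAH9, -0.86 for GstD3 and -0.55 for Pex6. Among the genes with an enlarged rise, the interaction was 4.28 for Lsp1gamma, 2.10 for CG31810, 2.09 for CG15818, 1.87 for Bace, 1.86 for CG7720, 1.83 for CG13482, 1.62 for Jon66Cii, 1.25 for ref(2)P, 0.92 for alphaTry, 0.89 for yip2, 0.88 for CG31370, 0.83 for ITP, 0.79 for Npc2f, 0.76 for Jon65Ai and 0.53 for ATPCL. Among the genes with an enlarged fall, the interaction was -3.99 for CG13069, -3.21 for CG13051, -2.39 for CG14569, -1.94 for CG32564, -1.59 for CG10211, -1.38 for CG6012, -1.20 for CG9864, -1.07 for CG32645 and -0.84 for GstS1. With neither change called, the interaction was 0.65 for Baldspot, -0.61 for CG15534, -0.58 for Pex11ab, -0.55 for Pex5, 0.52 for ImpL2 and -0.52 for Pex10. For CG13069 and CG13051, at or near 0 counts in Hnf4i midguts on day 4, the fitted value depends on the prior count and is no bound.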

How the results depend on the processing

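The counts of called genes kept within 1.5 times their value under RLE size factors, both other filters on low counts, the filter of a group mean of 10 CPM and the fat body covariate. DESeq2 gave 67 and limma-voom 22 enlarged falls, against 39. With no minimum on size 389 genes were lower and 461 higher, with 267 blunted and 215 enlarged rises and 115 blunted falls. With a minimum of 1 the counts were 90 lower, 86 higher, 37 blunted rises, 17 blunted falls, 43 new rises, 21 new falls, 13 enlarged rises and 19 enlarged falls. Without the 4 libraries highest in fat body transcripts 488 genes were higher, with 66 blunted falls, 254 new rises, 81 new falls, 133 enlarged rises and 82 enlarged falls. With Hnf4i day 4 replicate 3 alone in its group, an alternative chosen after seeing the data, 439 genes were higher and 328 lower, with 222 new rises, 79 new falls, 130 enlarged rises and 74 enlarged falls. In both fits 1 library stands for a group, so the counts rest on it. The interaction of Lsp1gamma turned to -0.58 and -1.0 in these fits, and without 1 replicate number in all groups it reached 4.94.

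With 1 library left out, lower calls ranged over 196 to 278, higher calls 196 to 309, blunted rises 111 to 145, blunted falls 34 to 50, new rises 87 to 128, new falls 36 to 65, enlarged rises 60 to 101 and enlarged falls 19 to 54. Without 1 replicate number in all groups the ranges were 154 to 206, 129 to 195, 102 to 110, 30 to 47, 60 to 85, 27 to 39, 28 to 60 and 9 to 39 in the same order. Samples that shared a replicate number did not deviate together: the correlations of their deviations ran between -0.168 and 0.086 over 24 pairs. With the replicate number as a block 484 genes were called, of which 456 are among the 493, and of the 115 called genes named 111 kept the call. The cause of these shifts was not tested, and the planned description of promoter motifs was not run.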
